A study of Mus musculus with 48 samples.

Results

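The pore-forming subunits of the voltage-gated sodium, potassium and calcium channels were described in astrocyte and mCh-sorted RNA from mouse brain. Members were chosen by symbol, as the genes named Scn with a number and a, the genes of the Kcna, Kcnb, Kcnc, Kcnd, Kcnh and Kcnq families, and the genes named Cacna1 with a letter. These symbols gave 49 genes, 9 sodium, 30 potassium and 10 calcium channel genes, of 24421 gene entries in the deposited tables. A sodium channel gene that is listed under the older symbol Scn2a1 lies outside this pattern and was not included.

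The study profiled 48 RNA-seq libraries of sorted cells from olfactory bulb, cortex and hippocampus, in 16 groups of 3 libraries. In each of the 3 regions, mice labelled Gq-CNO were set against mice labelled Gq-Saline, both of Aldh1l1-GFP genotype, and each gave a GFP sort labelled astrocytes and an mCh sort labelled neurons. Clozapine N-oxide (CNO) is a drug used to activate designer receptors, and the labels do not say which cells carried the Gq construct. The Aldh1l1-GFP transgene marks astrocytes, so every GFP group carries it. In olfactory bulb, GFP astrocytes of CNO control mice were set against those of untreated mice, both Aldh1l1-GFP. Also in olfactory bulb, mCh cells labelled as astrocytes of Slc22a3-cKO mice (Slc22a3-FF mice given Gfap-Cre) were set against their controls (Slc22a3-FF mice given Gfap-mCh), so both groups carry the floxed allele and differ in whether the astrocyte promoter Gfap drives Cre or mCh. The labels give neither age nor sex. They also do not tie the 3 libraries of a group to separate mice, so each p-value sets a difference against a spread between libraries that may be technical.

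Voltage-gated channels open when the membrane is depolarised. Sodium channels carry the rising phase of the action potential, potassium channels repolarise the membrane and set its firing pattern, and calcium channels couple depolarisation to transmitter release and to signalling inside the cell. Most of these genes are best known from neurons. Mature astrocytes are electrically passive cells whose potassium conductance comes largely from inward rectifier and leak channels, although RNA of some voltage-gated potassium channels is also found in them.

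Results below turn on Kcna2, Kcnd3 and Kcnc1, and the bases just upstream of a RefSeq start site of each are shown. Kcna2 was called higher in the GFP than in the mCh sort, in cortex and hippocampus. Kcnd3 and Kcnc1 were called higher in olfactory bulb than in hippocampus in the GFP sort. The sequences are from RefSeq, build GRCm38.p6, plus strand, 5′ to 3′, with exon bases left out. The Kcna2 stretch lies inside the GENCODE gene span given below, downstream of its first base, so it is set beside promoters only as a RefSeq entry. Capitals mark a GC box (GGGCGG or CCGCCC) or an E-box (CAGCTG, the same on both strands). Kcna2 (chr3:107101395-107101566) encodes a low-threshold potassium channel of axons, Kcnd3 (chr3:105451640-105451889) a fast inactivating A-type potassium channel, and Kcnc1 (chr7:46396218-46396467) a potassium channel that lets neurons fire at high rates.
Kcna2: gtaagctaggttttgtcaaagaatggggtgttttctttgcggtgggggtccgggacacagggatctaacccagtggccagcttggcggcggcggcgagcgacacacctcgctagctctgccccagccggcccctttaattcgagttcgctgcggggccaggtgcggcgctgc
Kcnd3: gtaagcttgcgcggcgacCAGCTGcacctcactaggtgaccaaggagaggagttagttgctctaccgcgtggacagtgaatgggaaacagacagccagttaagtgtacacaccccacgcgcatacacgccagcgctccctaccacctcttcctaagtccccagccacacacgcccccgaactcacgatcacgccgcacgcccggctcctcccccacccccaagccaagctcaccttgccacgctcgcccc
Kcnc1: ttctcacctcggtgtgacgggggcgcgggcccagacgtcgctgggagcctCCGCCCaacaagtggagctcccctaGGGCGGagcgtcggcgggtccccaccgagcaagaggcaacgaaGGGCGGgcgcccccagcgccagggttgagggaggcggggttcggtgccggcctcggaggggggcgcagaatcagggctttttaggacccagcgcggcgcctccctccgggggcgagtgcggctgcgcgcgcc

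Kcnc1 held 3 GC boxes in 250 bases, Kcnd3 held 1 E-box in 250 bases, and neither letter string lay in the 172 bases of Kcna2. Of 32851 promoters in the RefSeq table, 32.7% held a GC box and 13.0% this E-box within 250 bases, and 29.8% and 9.52% within 172 bases. TATAAA or its reverse complement TTTATA, found in 12.4% of promoters within 250 bases, lay in none of the 3 windows. Promoter entries existed for 34 of the 49 channel genes. A match is a description of the letters only.

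Levels between genes and between tables are given as reads per 1000000 reads of the library (RPM), or as RPM per kilobase of exon where genes are compared. Depth ran from 228048 to 24664376 reads, with a median of 5706870. The shallowest libraries were cortical mCh Gq-CNO replicate 3 (228048 reads), cortical GFP Gq-CNO replicate 4 (325129 reads) and cortical mCh Gq-Saline replicate 1 (695264 reads). All 16 astrocyte markers had reads in every library. Their median level was 963 to 1427 RPM in the GFP sort of Gq mice and 72.5 to 714 RPM in the mCh sort. The 12 neuron markers had a median of 7.66 to 30.1 RPM in that GFP sort and 50.3 to 191 RPM in the mCh sort. In the mCh sort the microglia markers, at 389 to 1237 RPM, stood above the neuron markers, and oligodendrocyte precursor markers, at 126 to 370 RPM, did so in all but 1 library. It is therefore called the mCh sort here, not neurons. The cortical GFP Gq-Saline library numbered 4 stood apart, with a microglia marker median of 180.5 RPM, an oligodendrocyte median of 122 RPM and a neuron median of 30.1 RPM. Libraries numbered 4 in cortical and hippocampal GFP groups were matched to their group and not to a single sample. In bulk RNA of this kind, fewer cells of a type and less RNA per cell cannot be told apart.

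Of the 49 channel genes, 11 had reads in all 48 libraries, and Kcna10, a potassium channel gene, had none in any. A further 7 had reads in under 12 libraries: Cacna1f and Kcna5, Kcna7, Kcnq1, Scn4a, Scn10a and Scn11a, several of which are best known from retina, muscle, heart or sensory neurons. These 8 and Kcnh6 passed the filter on low values in none of the 17 comparisons of groups, sorts or regions, and 15 genes passed it in all of them. In at least 1 of those comparisons, 28 genes were called by limma at an adjusted p under 0.05. Among the genes tested but never called by limma were Kcna3, Kcna4, Kcna6, Kcnc4, Kcnd1, Kcnd2, Kcnh1, Kcnh2, Kcnh4 and Scn7a. Of these, edgeR called Kcnh1 and Kcnh2 in 1 comparison each, and DESeq2 called Kcna4, Kcna6, Kcnc4, Kcnd1, Kcnh1 and Kcnh2 in at least 1. The gene Kcna3 encodes a potassium channel well known from microglia and T cells. It had at most 36.4 RPM (19.1 RPM per kilobase of exon), in a cortical mCh Gq-Saline library. Its median over the 6 cortical mCh libraries was 0, and microglia markers were high in that sort.

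In the GFP astrocytes of Gq mice 1 channel gene, Kcna2, had the highest median level per kilobase of exon in each region. Its reads (chromosome 3, 107101146 to 107115005, plus strand) were a median of 37.3% of all channel gene reads in olfactory bulb (32.9% to 43.3% over 6 libraries), 61.5% in cortex (32.9% to 69.1%) and 56.8% in hippocampus (48.7% to 66.2%). In the mCh sort the median share was 20.0% in olfactory bulb, 12.9% in cortex and 9.64% in hippocampus. Per kilobase of exon, Kcna2 had a median of 39.36 RPM (30.4 to 51.6 over 18 libraries) in the GFP sort. The genes below it differed between regions. In olfactory bulb the median level per kilobase was 20.7 RPM for Kcnd3 (18.2 to 26.4), 10.5 for Kcnd2 (8.28 to 12.1), an A-type potassium channel gene, and 10.3 for Kcnc1 (4.86 to 13.0). The ranges of Kcnd2 and Kcnc1 overlapped, and both lay below that of Kcnd3. In cortex Kcnd2 came next, at 5.78 (0.858 to 8.65), and overlapped with Kcna6 at 3.11 (2.05 to 4.01) and Kcnd3 at 3.08 (1.08 to 12.6). In hippocampus Kcnd2 was at 12.8 (7.22 to 15.7), above Kcnd1 at 3.37 (0.431 to 4.58) and Kcna6 at 2.83 (1.04 to 5.27), with no overlap.

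In the mCh sort the highest median per kilobase in cortex was that of Kcna1, at 36.3 RPM (13.3 to 45.6). Kcna2 came next there at 16.8 (8.10 to 20.7), and the ranges overlapped. Kcna1 was also highest in hippocampus, at 16.2 (13.6 to 31.5), and Kcna2 in olfactory bulb, at 23.5 (16.4 to 30.3). With the regions pooled, no single gene stood out in the mCh sort. Among the highest medians per kilobase were 16.9 RPM for Kcna1 (6.55 to 45.6), an axonal partner of Kcna2, 16.7 for Kcna2 (8.10 to 30.3), 12.5 for Kcnd2 (5.16 to 25.1) and 8.91 for Kcnd3 (2.21 to 20.8), and these 4 ranges overlapped. GFP astrocytes of CNO control and untreated mice again had Kcna2 first, at 60.4 (45.8 to 70.4 over 6 libraries), followed by Kcnd2 at 16.9, Kcnd3 at 16.7, Kcna1 at 14.8 and Kcnc1 at 8.00. The mCh libraries of Slc22a3-floxed mice, labelled astrocytes, had Kcna2 at 29.9 (12.4 to 61.4), Kcnc1 at 19 (3.95 to 31.2), Kcna1 at 15.22 (6.54 to 45.6), Cacna1d, an L-type calcium channel gene, at 10.3 (9.17 to 13.1), and Kcnd2 at 4.63 (0.621 to 16.4). Their astrocyte markers were at 46.9 to 86.8 RPM in the libraries labelled Slc22a3-cKO and 244 to 340 RPM in controls, below the 842 to 1106 RPM of the CNO control and untreated GFP libraries. Microglia markers had a median of 435 to 1099 RPM in the libraries labelled Slc22a3-cKO and 253 to 434 RPM in controls, above the astrocyte markers in 5 of the 6 libraries, so these are not taken as astrocyte levels.

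**Figure D1:**
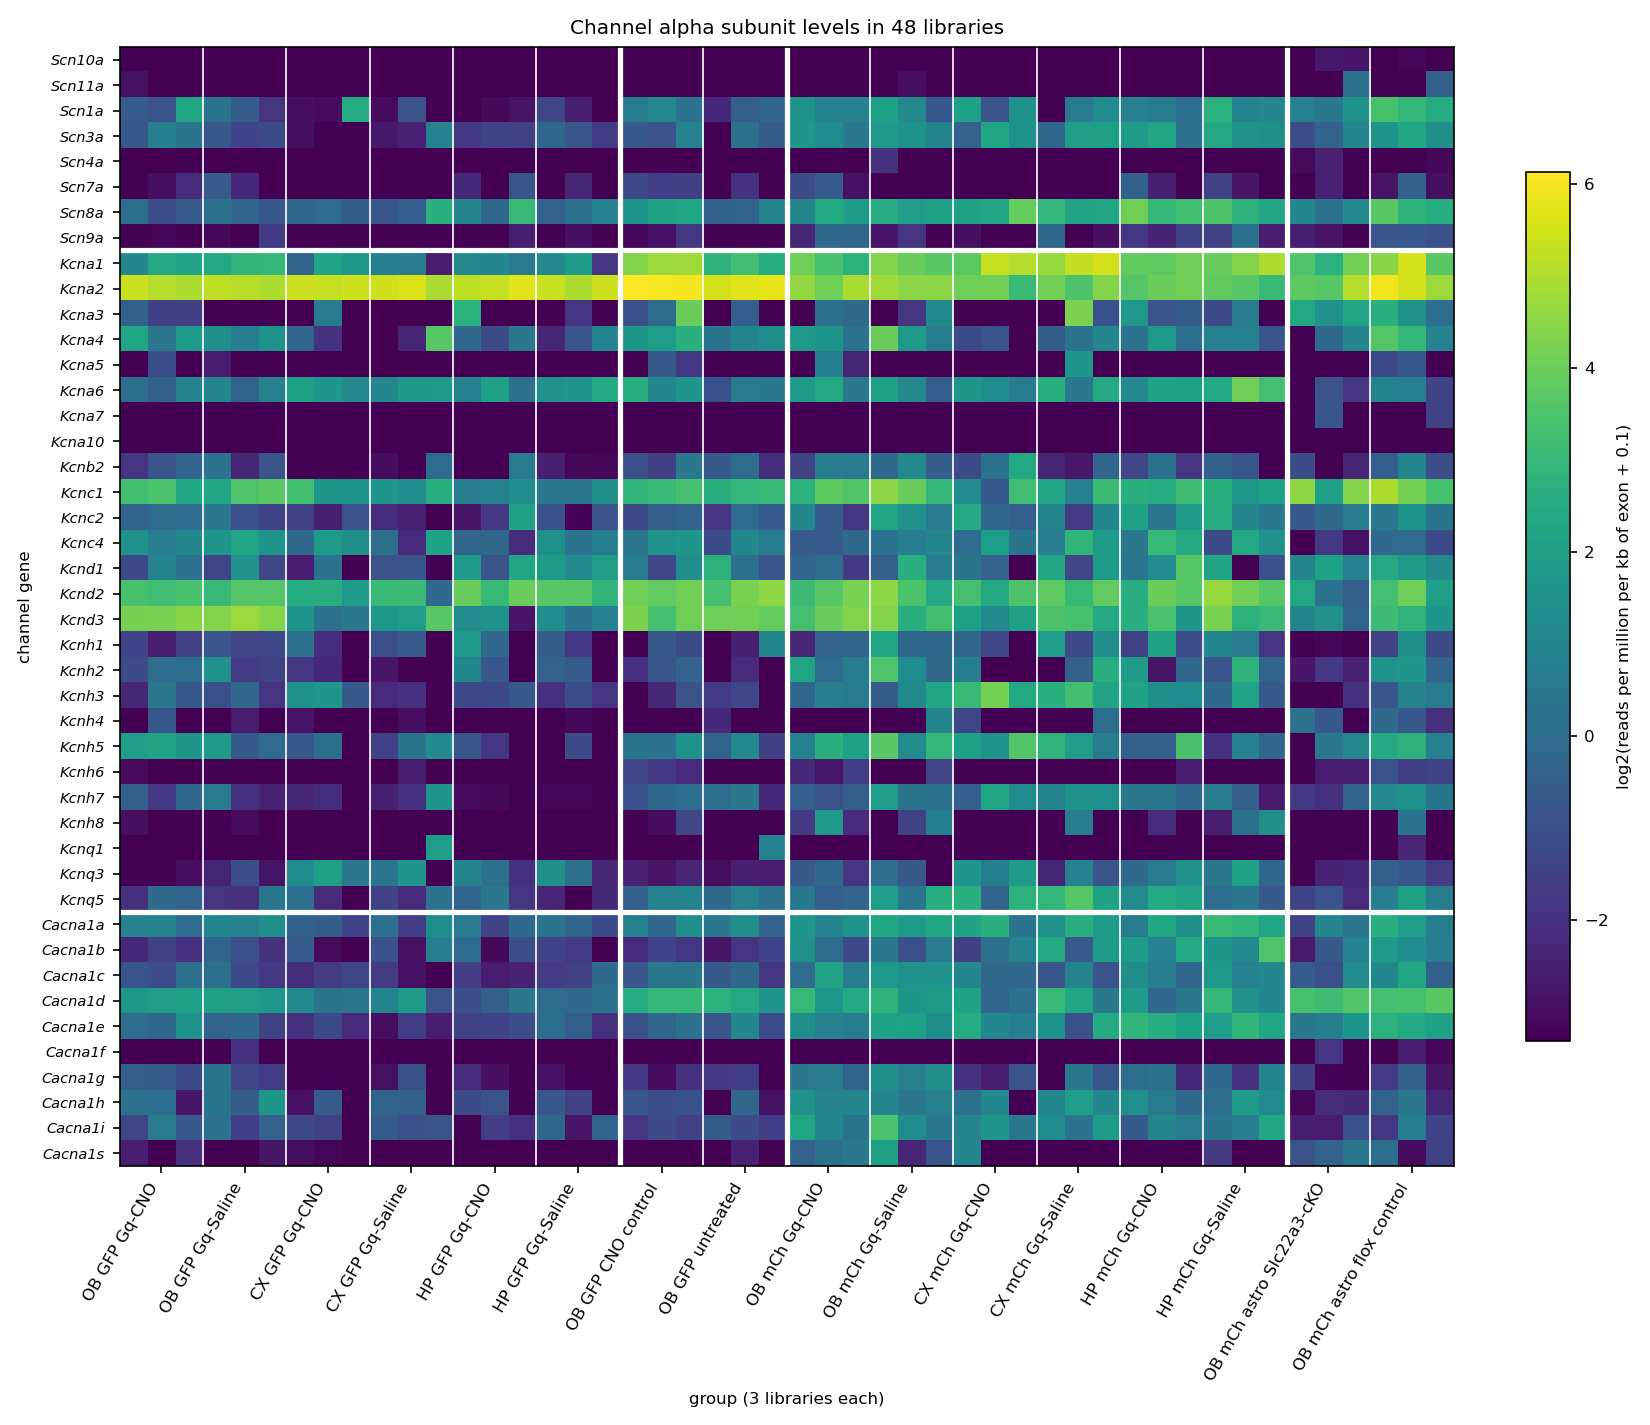
Level of 44 of the 49 channel genes (rows) in each of the 48 libraries (columns, by group), as log2(RPM per kilobase of exon + 0.1), darker or lighter as the colour scale shows. Kcna2 forms a continuous band through the GFP groups, and most other channel genes are higher in the mCh sort of Gq mice.

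The GFP sort and the mCh sort of Gq mice were compared within each region, with the Gq-CNO and Gq-Saline libraries averaged. They come from tables that were normalised separately, so reads were normalised again together, and sort and table cannot be told apart. Kcna2 was the 1 channel gene called higher in the GFP sort, in cortex and in hippocampus. In cortex it had 494, 468 and 523 RPM in GFP Gq-CNO and 518, 588 and 362 RPM in GFP Gq-Saline libraries, against 197, 202 and 96.5 RPM in mCh Gq-CNO and 204, 134 and 246 RPM in mCh Gq-Saline libraries. In hippocampus it had 445, 469 and 614 RPM in GFP Gq-CNO and 486, 378 and 511 RPM in GFP Gq-Saline libraries, against 147, 193 and 200 RPM in mCh Gq-CNO and 169, 151 and 100.2 RPM in mCh Gq-Saline libraries. All 6 GFP libraries lay above all 6 mCh libraries in both regions. The log2 difference of Kcna2 was 1.64 (SE 0.22, limma adjusted p = 6.77e-08) in cortex and 1.73 (SE 0.22, limma adjusted p = 3.11e-08) in hippocampus, and both calls held whichever single library of the region was left out. In olfactory bulb Kcna2 had 499, 404 and 371 RPM in GFP Gq-CNO and 444, 418 and 369 RPM in GFP Gq-Saline libraries, against 290, 195 and 361 RPM in mCh Gq-CNO and 331, 270 and 266 RPM in mCh Gq-Saline libraries. The sorts did not overlap there either, but the log2 difference of 0.59 (SE 0.22) missed the threshold with limma (adjusted p = 0.0602) and passed it with edgeR (adjusted p = 0.039) and DESeq2 (adjusted p = 0.0495).

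**Figure D2:**
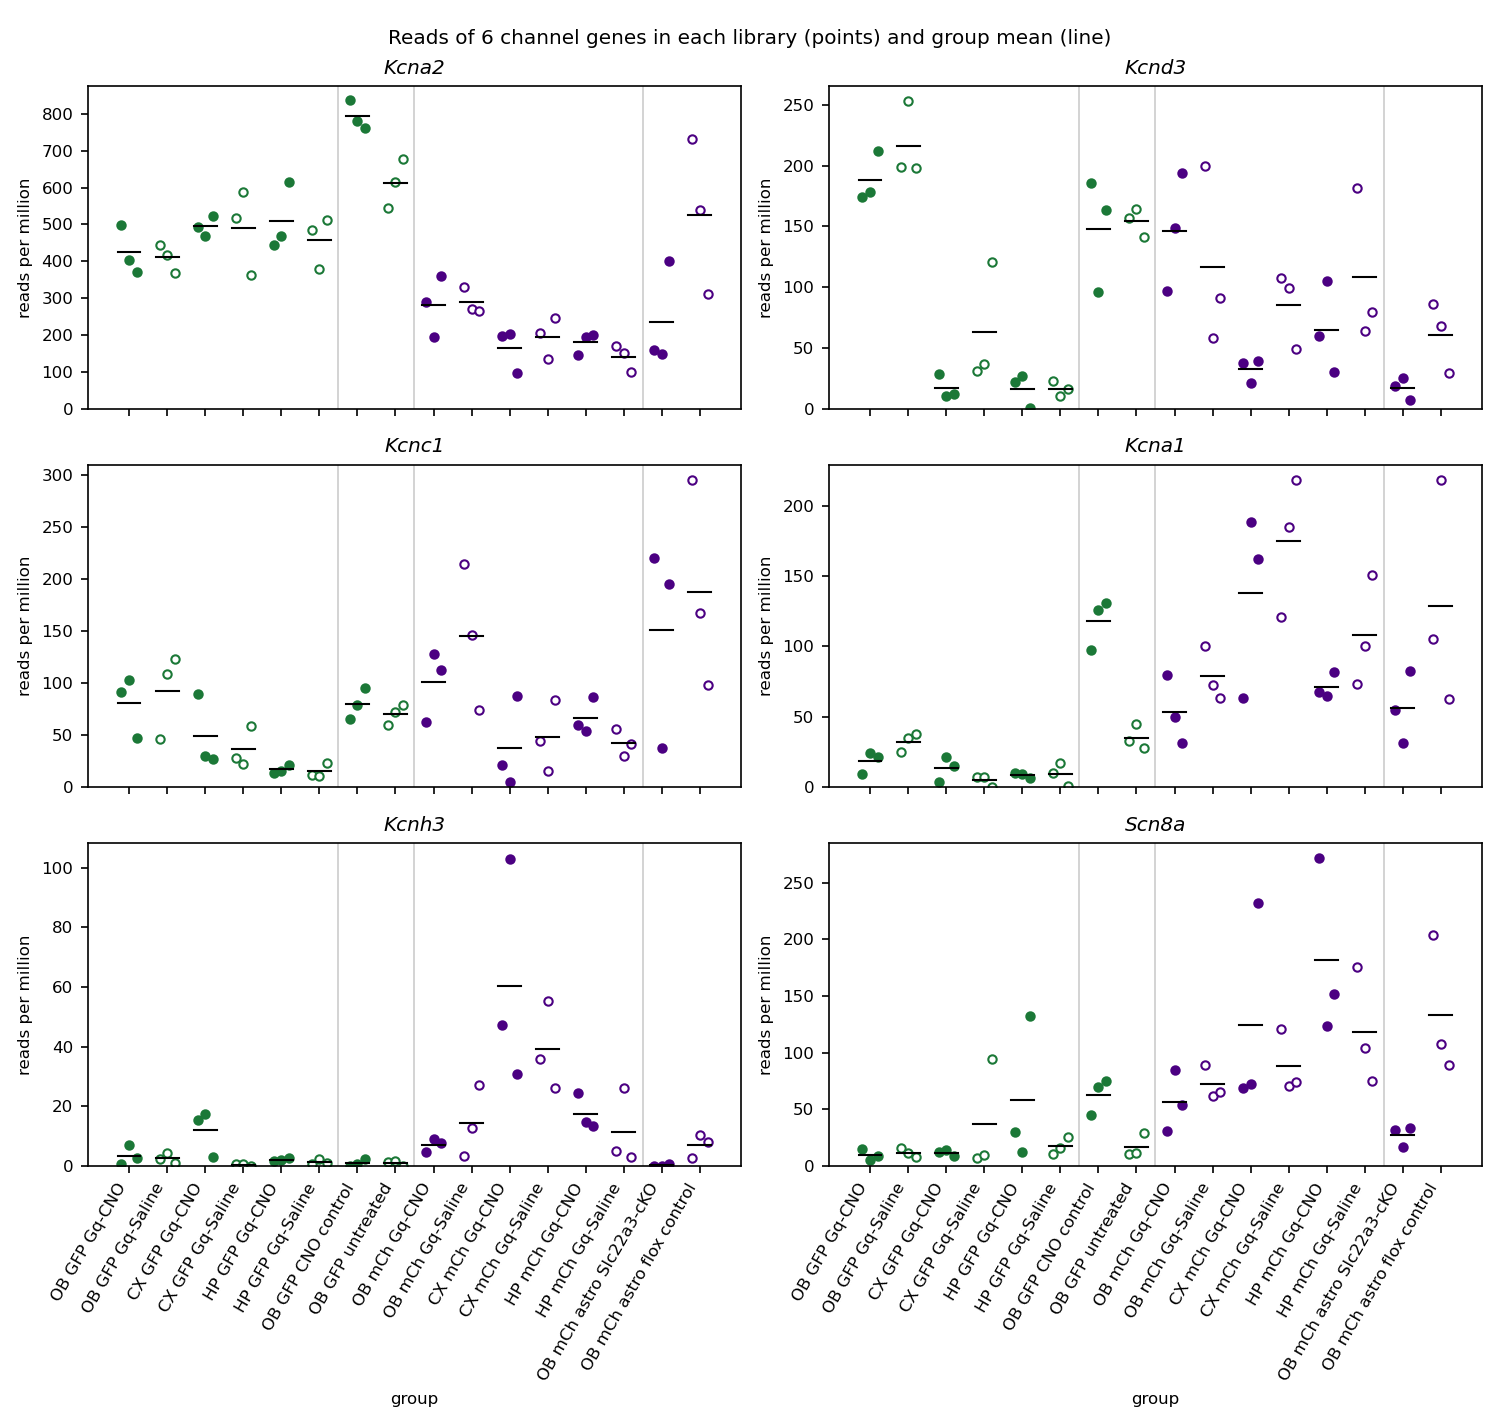
RPM of Kcna2, Kcnd3, Kcnc1, Kcna1, Kcnh3 and Scn8a in each library (points) and the mean of each group (line), by group. Kcna2 sits between 362 and 614 RPM in the GFP libraries of Gq mice and between 96.5 and 361 RPM in the mCh libraries, while Kcnh3 and Scn8a are mostly higher in the mCh sort.

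The other channel genes lay mostly below the mCh sort. Of 39 genes tested, 18 were called lower in cortex (16.8% of all genes tested were called lower), 21 in hippocampus (15.9% of all genes) and 5 in olfactory bulb (9.85% of all genes). Over all genes tested, 11.8% did not overlap between sorts in cortex, 15.3% in hippocampus and 14.4% in olfactory bulb. The count called lower in olfactory bulb is near what the share of all genes gives, and those in cortex and hippocampus are above it. The median log2 difference over the channel genes was -2.24 in cortex, -2.14 in hippocampus and -1.28 in olfactory bulb, beside 0.05, -0.04 and 0.02 over all genes tested.

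Neuron markers moved the same way. All 12 had reads in every mCh library and 9 to 12 of them in the GFP libraries, and their summed level was 599.5 to 1434 RPM in the GFP sort and 1746 to 5639 RPM in the mCh sort. The 12 microglia markers summed to 90.4 to 3148 RPM in the GFP sort and 4788 to 15638 RPM in the mCh sort, and the 10 oligodendrocyte markers to 754 to 3418 RPM in the GFP sort and 18351 to 60454 RPM in the mCh sort. Their part in the differences of the channel genes was not tested.

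Among sodium channels, which carry the action potential upstroke, Scn8a was the 1 gene called lower by limma in all 3 regions, and DESeq2 also called Scn3a in each. In olfactory bulb it had 15.4, 5.78 and 8.74 RPM in GFP Gq-CNO and 16.1, 11.7 and 7.78 RPM in GFP Gq-Saline libraries, against 30.6, 84.7 and 54.2 RPM in mCh Gq-CNO and 88.9, 61.4 and 65.7 RPM in mCh Gq-Saline libraries. The groups did not overlap in olfactory bulb, and the log2 difference of Scn8a was -2.52 (SE 0.53, limma adjusted p = 0.000524). Scn8a differed by -2.50 in cortex and -2.36 in hippocampus on the log2 scale, both called by limma, edgeR and DESeq2, although in cortex the GFP Gq-Saline library numbered 4 had 94.8 RPM, above several mCh libraries. Scn3a, a sodium channel gene of the developing brain, was called lower in cortex, by -4.68 (SE 0.71, limma adjusted p = 1.24e-06), and in hippocampus, by -2.97. Scn1a, the main sodium channel gene of fast-spiking inhibitory neurons, was called in hippocampus. There it had 0, 0.163 and 0.475 RPM in GFP Gq-CNO and 3.30, 0.818 and 0 RPM in GFP Gq-Saline libraries, against 18.3, 16.6 and 11.2 RPM in mCh Gq-CNO and 72.8, 20.1 and 22.0 RPM in mCh Gq-Saline libraries. The log2 difference of Scn1a was -5.04 (limma adjusted p = 0.000468), with no overlap. Scn9a, best known from sensory neurons, was called lower by limma in hippocampus, by -2.94, and by edgeR in cortex as well.

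Of the 24 potassium channel genes tested, 10 were called lower in cortex, 9 in hippocampus and 2 in olfactory bulb. Kcna1 had 3.61, 21.3 and 15.4 RPM in cortical GFP Gq-CNO and 7.56, 7.10 and 0.340 RPM in GFP Gq-Saline libraries, against 63.6, 188 and 162 RPM in mCh Gq-CNO and 121, 185 and 218 RPM in mCh Gq-Saline libraries. All GFP libraries of cortex lay below all mCh libraries, and the log2 difference of Kcna1 was -4.50 (SE 0.57, limma adjusted p = 3.10e-08), opposite in sign to that of Kcna2. Kcnq5, a gene of the M-current, which is a slow potassium current that restrains repeated firing, differed by -4.20 (SE 0.85) in cortex and -2.93 in hippocampus. Of the ether-a-go-go family, Kcnh3 was called lower in cortex (-4.08, SE 0.76) and hippocampus (-2.51), and Kcnh7 in cortex (-3.73) and hippocampus (-4.72, SE 0.89). Kcnh8 was called lower in olfactory bulb (-2.67, SE 0.83), where its reads lay mostly in 2 mCh libraries, at 15.0 and 7.30 RPM. Leaving out mCh Gq-CNO replicate 2 or mCh Gq-Saline replicate 3 took the call of Kcnh8 away (limma adjusted p = 0.11 and 0.097).

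All 9 calcium channel genes tested had a negative difference in each region. Of them 6 were called lower in cortex, 8 in hippocampus and 2 in olfactory bulb. Cacna1e, the R-type channel gene, differed by -3.93 in cortex and -3.74 in hippocampus on the log2 scale, with no overlap between the sorts in either. Cacna1b, the N-type channel gene of nerve terminals, differed by -4.33 (SE 0.97, limma adjusted p = 0.000546) in hippocampus and -2.88 in cortex. Cacna1c, an L-type channel gene, was called in all 3 regions, by -2.23 (SE 0.66) in olfactory bulb, -3.02 in cortex and -2.94 in hippocampus. Cacna1s, the skeletal muscle L-type channel gene, was called in olfactory bulb, where it had 0 to 0.945 RPM in GFP libraries and 0.680 to 26.8 RPM in mCh libraries, with a log2 difference of -3.57 (SE 0.80, limma adjusted p = 0.00102). An annotated gene on the opposite strand, Gm37759, overlaps 1309 exon bases of Cacna1s, and the strand of counting is not stated, so its reads are uncertain. The same holds for Cacna1a, Cacna1d, Cacna1h, Kcna6, Kcnd3, Kcnh7, Kcnq1, Kcnq5 and Scn9a, and for 1 base of Kcnh3. No such gene overlaps Kcna2. Without the olfactory bulb mCh Gq-CNO replicate 2, 3 channel genes were called in olfactory bulb, and DESeq2 called 11 there.

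**Figure D3:**
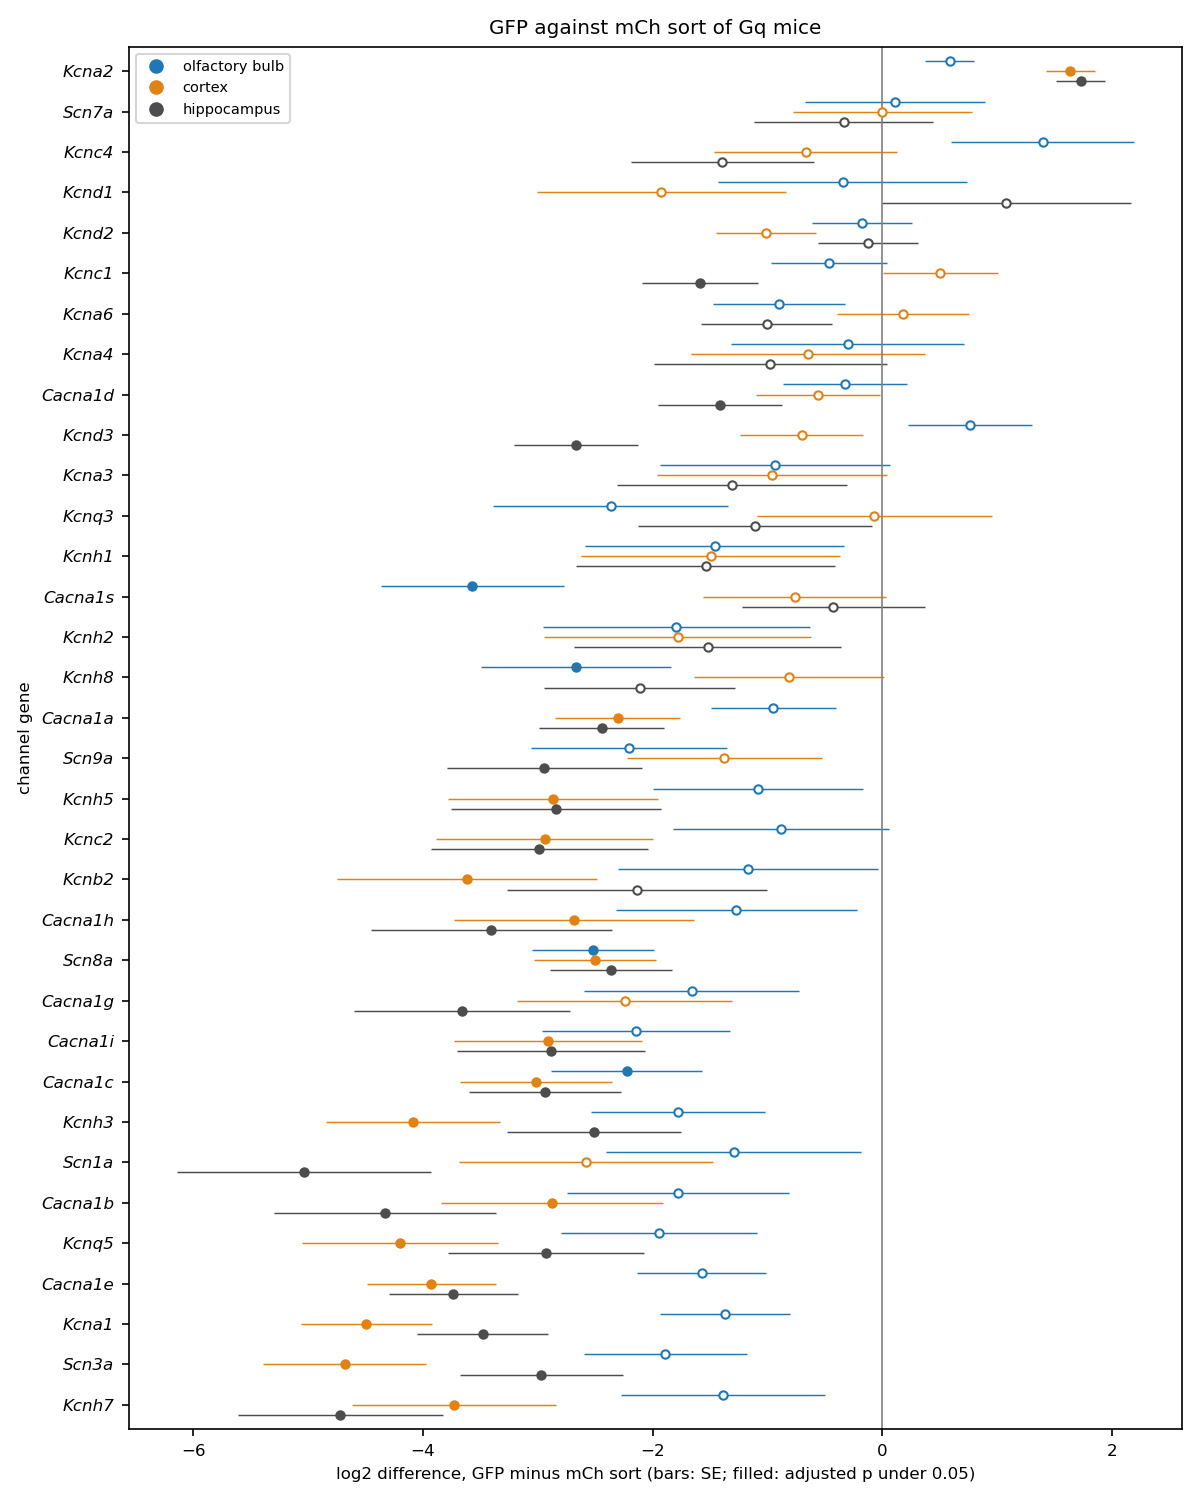
Log2 difference, GFP minus mCh sort, of tested channel genes in olfactory bulb, cortex and hippocampus of Gq mice, with bars for 1 SE and filled points for a limma adjusted p under 0.05. Kcna2 is right of 0 in each region, at 0.59, 1.64 and 1.73, and the called genes other than Kcna2 are left of 0.

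Olfactory bulb differed from cortex and hippocampus in the GFP astrocytes of Gq mice, and Kcnd3 had the smallest p-value of the channel genes in both comparisons. In olfactory bulb Kcnd3 had 174, 178 and 212 RPM in Gq-CNO and 199, 253 and 198 RPM in Gq-Saline libraries. Cortical GFP libraries had 28.4, 10.3 and 12.3 RPM with Gq-CNO and 30.7, 36.8 and 121 RPM with Gq-Saline. Hippocampal GFP libraries had 21.9, 26.8 and 0.475 RPM with Gq-CNO and 23.1, 10.7 and 15.8 RPM with Gq-Saline. All 6 olfactory bulb libraries lay above all 12 others (5.23% of all genes tested did not overlap between olfactory bulb and cortex). The highest of the 12 was the cortical Gq-Saline library numbered 4, at 121 RPM. The log2 difference of Kcnd3 was 2.67 (SE 0.64, limma adjusted p = 0.0155) against cortex and 4.14 (SE 0.64, limma adjusted p = 0.00034) against hippocampus, and both held whichever single library was left out. With Gq-Saline libraries only, the difference of Kcnd3 was 1.92 against cortex, which was not called (limma adjusted p = 0.197), and 3.64 against hippocampus, which was (limma adjusted p = 0.0148). Region and table cannot be told apart here, since each region has its own table. CNO control and untreated olfactory bulb GFP libraries, from a separate table, had Kcnd3 at 185, 95.8 and 163 RPM (CNO control) and 157, 165 and 141 RPM (untreated), and 5 of these 6 lay above all 12 cortical and hippocampal values, while the library at 95.8 RPM lay below the cortical one at 121 RPM.

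Against cortex, 4 of 33 channel genes were called, 3 higher (3.22% of all genes were called higher) and 1 lower (1.80% of all genes). Besides Kcnd3 these were Cacna1g, a T-type calcium channel gene, at 3.80 (SE 0.94, limma adjusted p = 0.0178), Cacna1e at 2.57 (SE 0.71, limma adjusted p = 0.0356) and Kcnq3, an M-current gene, at -4.35 (SE 1.21, limma adjusted p = 0.0374). Kcnq3 had 0, 0 and 0.472 RPM in Gq-CNO and 1.44, 5.62 and 0.648 RPM in Gq-Saline olfactory bulb libraries, against 33.8, 59.9 and 18.5 RPM in Gq-CNO and 17.8, 44.7 and 0 RPM in Gq-Saline cortical libraries. Every cortical library was above every olfactory bulb one except the Gq-Saline library numbered 4, which had no read of Kcnq3. Cacna1g had 2.27 to 11.8 RPM in olfactory bulb and 0 to 4.13 RPM in cortex. The number of calls moved with single libraries. It was 7 without the cortical Gq-Saline library numbered 4, 1 without olfactory bulb Gq-Saline replicate 1, and 2 without cortical Gq-Saline replicate 1, cortical Gq-CNO replicate 1, the cortical Gq-CNO library numbered 4, or olfactory bulb Gq-CNO replicate 1 or 2. Without every library numbered 4 it was 13. Of the 12 fits that left out 1 library, the call of Cacna1e was lost in 8 (highest limma adjusted p = 0.13), all but those without cortical Gq-Saline replicate 2, the cortical Gq-Saline library numbered 4, cortical Gq-CNO replicate 2 or olfactory bulb Gq-Saline replicate 3. That of Kcnq3 was lost in 9 (highest limma adjusted p = 0.0983), all but those without the cortical Gq-Saline library numbered 4, olfactory bulb Gq-Saline replicate 2 or olfactory bulb Gq-CNO replicate 3. None of the 4 was called with Gq-Saline libraries only, and the log2 difference of Kcnq3 was -1.39 (limma adjusted p = 0.786). The call of Cacna1g was lost in 1 of the 12 fits, without olfactory bulb Gq-Saline replicate 1 (limma adjusted p = 0.0578). Cacna1g was also not called by edgeR (adjusted p = 0.107) or by limma after quantile normalisation (adjusted p = 0.145), while DESeq2 called it.

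Against hippocampus, limma called 6 of 33 channel genes, all higher in olfactory bulb (2.24% of all genes were called higher). None of the 6 overlapped between regions, where 5.08% of all genes tested did not. Kcnq3 was called by edgeR and DESeq2 but not by limma. Its median per kilobase was 0.0381 RPM in olfactory bulb and 1.03 RPM in hippocampus. DESeq2 also called Scn1a. Kcnc1 had 91.5, 103 and 47 RPM in Gq-CNO and 46.0, 109 and 123 RPM in Gq-Saline olfactory bulb libraries, against 14.2, 15.9 and 21.9 RPM in Gq-CNO and 12, 11.4 and 23.6 RPM in Gq-Saline hippocampal libraries. Every olfactory bulb library had more Kcnc1 than every hippocampal one, and the log2 difference was 2.24 (SE 0.43, limma adjusted p = 0.00252). Cacna1d had 40.2 to 51.8 RPM in olfactory bulb and 4.82 to 16.2 RPM in hippocampus, a log2 difference of 2.09 (SE 0.50, limma adjusted p = 0.0168). The other 2 potassium channel genes were near 0 in hippocampus. Kcnh7 (4.28, SE 1.09, limma adjusted p = 0.0261) had 1.30 to 20.8 RPM in olfactory bulb and 0 to 0.324 RPM in hippocampus, and Kcnh5 (4.22, SE 1.09, limma adjusted p = 0.0273) had 2.18 to 18.4 RPM in olfactory bulb and 0 to 1.95 RPM in hippocampus. Cacna1g differed by 3.81 (SE 0.94, limma adjusted p = 0.0203). The calls of Cacna1g, Kcnh7 and Kcnh5 were all lost without the hippocampal Gq-Saline library numbered 4, the hippocampal Gq-CNO library numbered 4 or olfactory bulb Gq-Saline replicate 1. Those of Cacna1g and Kcnh7 were also lost without hippocampal Gq-Saline replicate 2, and those of Kcnh7 and Kcnh5 without olfactory bulb Gq-CNO replicate 1 or 3. Kcnh5 further lost its call without hippocampal Gq-Saline replicate 1, olfactory bulb Gq-Saline replicate 3 or olfactory bulb Gq-CNO replicate 2. The highest limma adjusted p among these fits was 0.0652 for Cacna1g, 0.0998 for Kcnh7 and 0.0955 for Kcnh5. Cacna1g (edgeR adjusted p = 0.0692) and Kcnh5 (edgeR adjusted p = 0.0566) were not called by edgeR, while DESeq2 called both. The count of calls was 3 without the hippocampal Gq-Saline library numbered 4, 2 without olfactory bulb Gq-Saline replicate 1, and 10 without all libraries numbered 4. It was 1 with Gq-Saline libraries only, that of Kcnd3.

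Over all tested channel genes the median log2 difference in the GFP sort was 1.31 for olfactory bulb minus cortex and 1.15 for olfactory bulb minus hippocampus, beside 0.40 and 0.20 over all genes. Positive differences were found for 28 of 33 channel genes against cortex, where 67.7% of all genes were positive, and 27 of 33 against hippocampus, where 61.0% were. The 6 markers of GABA neurons, which are numerous in the olfactory bulb, summed to 78.03 to 189 RPM in olfactory bulb, 0 to 50.0 RPM in cortical and 3.98 to 196 RPM in hippocampal GFP libraries, and 6 glutamate neuron markers to 91.5 to 213 RPM in olfactory bulb, 252 to 877 RPM in cortex and 218 to 653 RPM in hippocampus. Their part in these differences was not tested. Between cortex and hippocampus no channel gene of 33 was called in the GFP sort by limma or edgeR (0.147% of all genes were called by limma). DESeq2 called 3, Kcnc1, Kcnd1 and Kcnh7, and 8 had an unadjusted limma p under 0.05, beside 1231 of all 12921 genes tested. The smallest p-values within each direction belonged to Kcnd1 (-3.92) and Kcnd2 (-1.31), lower in cortex, and Kcnc1 (1.29) and Kcnh7 (2.97), higher in cortex.

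The mCh sort had another set of regional differences, and its 18 libraries share 1 table and 1 normalisation. Against cortex, 6 of 36 channel genes were called. In olfactory bulb 3 were higher (5.58% of all genes were called higher) and 3 lower (2.99% of all genes). The count called higher is near what the share of all genes gives. Among the lower genes were Kcna1 at -1.25 (SE 0.33, limma adjusted p = 0.0134) and Kcnh3 at -2.33 (SE 0.65, limma adjusted p = 0.0185). Kcnh3 had 3.42 to 27.1 RPM in olfactory bulb and 26.1 to 103 RPM in cortex, and was the 1 channel gene of 36 whose normalised values did not overlap, beside 4.29% of all genes tested. With Gq-Saline libraries only, none of the 6 was called, and the log2 difference of Kcnh3 was -1.80 (limma adjusted p = 0.438).

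Higher in the olfactory bulb mCh sort than in cortex were Kcnc1, Kcnd3 and Cacna1s. Kcnc1 had 62.5, 128 and 112 RPM in Gq-CNO and 214, 146 and 74.1 RPM in Gq-Saline olfactory bulb libraries, against 21.6, 5.11 and 87.7 RPM in Gq-CNO and 44.6, 15.8 and 84.0 RPM in Gq-Saline cortical libraries. Replicate 3 of each cortical group reached the olfactory bulb range. The log2 difference was 1.92 (SE 0.48, limma adjusted p = 0.0087) for Kcnc1, 1.21 (SE 0.37, limma adjusted p = 0.0359) for Kcnd3 and 2.95 (SE 0.96, limma adjusted p = 0.0478) for Cacna1s. With Gq-Saline libraries only, the difference of Kcnd3 was 0.29 (limma adjusted p = 0.851). Its call was lost in 6 of 12 fits that left out 1 library (highest limma adjusted p = 0.128), those without cortical Gq-Saline replicate 3, cortical Gq-CNO replicate 2, olfactory bulb Gq-Saline replicate 1 or 3, or olfactory bulb Gq-CNO replicate 2 or 3. The call of Cacna1s was lost in 10 of 12 (highest limma adjusted p = 0.145), all but those without olfactory bulb Gq-Saline replicate 2 or cortical Gq-CNO replicate 1. With Cacna1s, 1 cortical library had 13.0 RPM and the other 5 none. The median of all genes in this comparison was 0.39 with the deposited normalisation, 0.17 with edgeR and 0.01 after quantile normalisation, so differences under about 0.4 are within that shift, and the channel gene median was 0.25. Without olfactory bulb Gq-Saline replicate 1 or Gq-CNO replicate 3, 3 channel genes were called. The call of Kcna1 was lost without that Gq-CNO replicate 3 (limma adjusted p = 0.0551), and that of Kcnh3 without olfactory bulb Gq-Saline replicate 1 (limma adjusted p = 0.0636) or cortical Gq-CNO replicate 2 (limma adjusted p = 0.0559).

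Against hippocampus, 3 of 36 were called in the mCh sort. In olfactory bulb 1 was higher, Cacna1s (2.29% of all genes were called higher), and 2 lower, among them Scn8a (1.62% of all genes). Scn8a differed by -1.18 (SE 0.34, limma adjusted p = 0.042) and Cacna1s by 3.45 (SE 0.96, limma adjusted p = 0.0306), each lost in 8 of 12 fits that left out 1 library. No channel gene was called with Gq-Saline libraries only, and Scn8a differed by -0.65 (limma adjusted p = 0.819). Scn8a kept its call without hippocampal Gq-Saline replicate 3, hippocampal Gq-CNO replicate 2, olfactory bulb Gq-Saline replicate 1 or olfactory bulb Gq-CNO replicate 2 (highest limma adjusted p of the rest = 0.166). Cacna1s kept it without hippocampal Gq-Saline replicate 1, olfactory bulb Gq-Saline replicate 2 or 3, or olfactory bulb Gq-CNO replicate 1 (highest of the rest = 0.114 by limma). The count was 1 without hippocampal Gq-Saline replicate 2, hippocampal Gq-CNO replicate 1 or 3, or olfactory bulb Gq-CNO replicate 3. Between cortex and hippocampus none of 36 was called by limma, edgeR or DESeq2 (0.388% of all genes were called by limma). Of the 36, 7 had an unadjusted limma p under 0.05, beside 1326 of all 12358 genes tested. The smallest p-values within each direction were those of Kcnh3 (1.96) and Kcnh7 (1.62), higher in cortex, and Cacna1e (-1.26) and Cacna1b (-1.43), lower in cortex. Summed glutamate neuron markers were 292 to 711 RPM in olfactory bulb, 3920 to 5754 RPM in cortex and 2048 to 6074 RPM in hippocampus of this sort, and summed GABA neuron markers 231 to 706 RPM, 41.0 to 87.6 RPM and 14.8 to 32.9 RPM in the same order. Their part in the differences of Kcnc1 and the others was not tested.

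**Figure D4:**
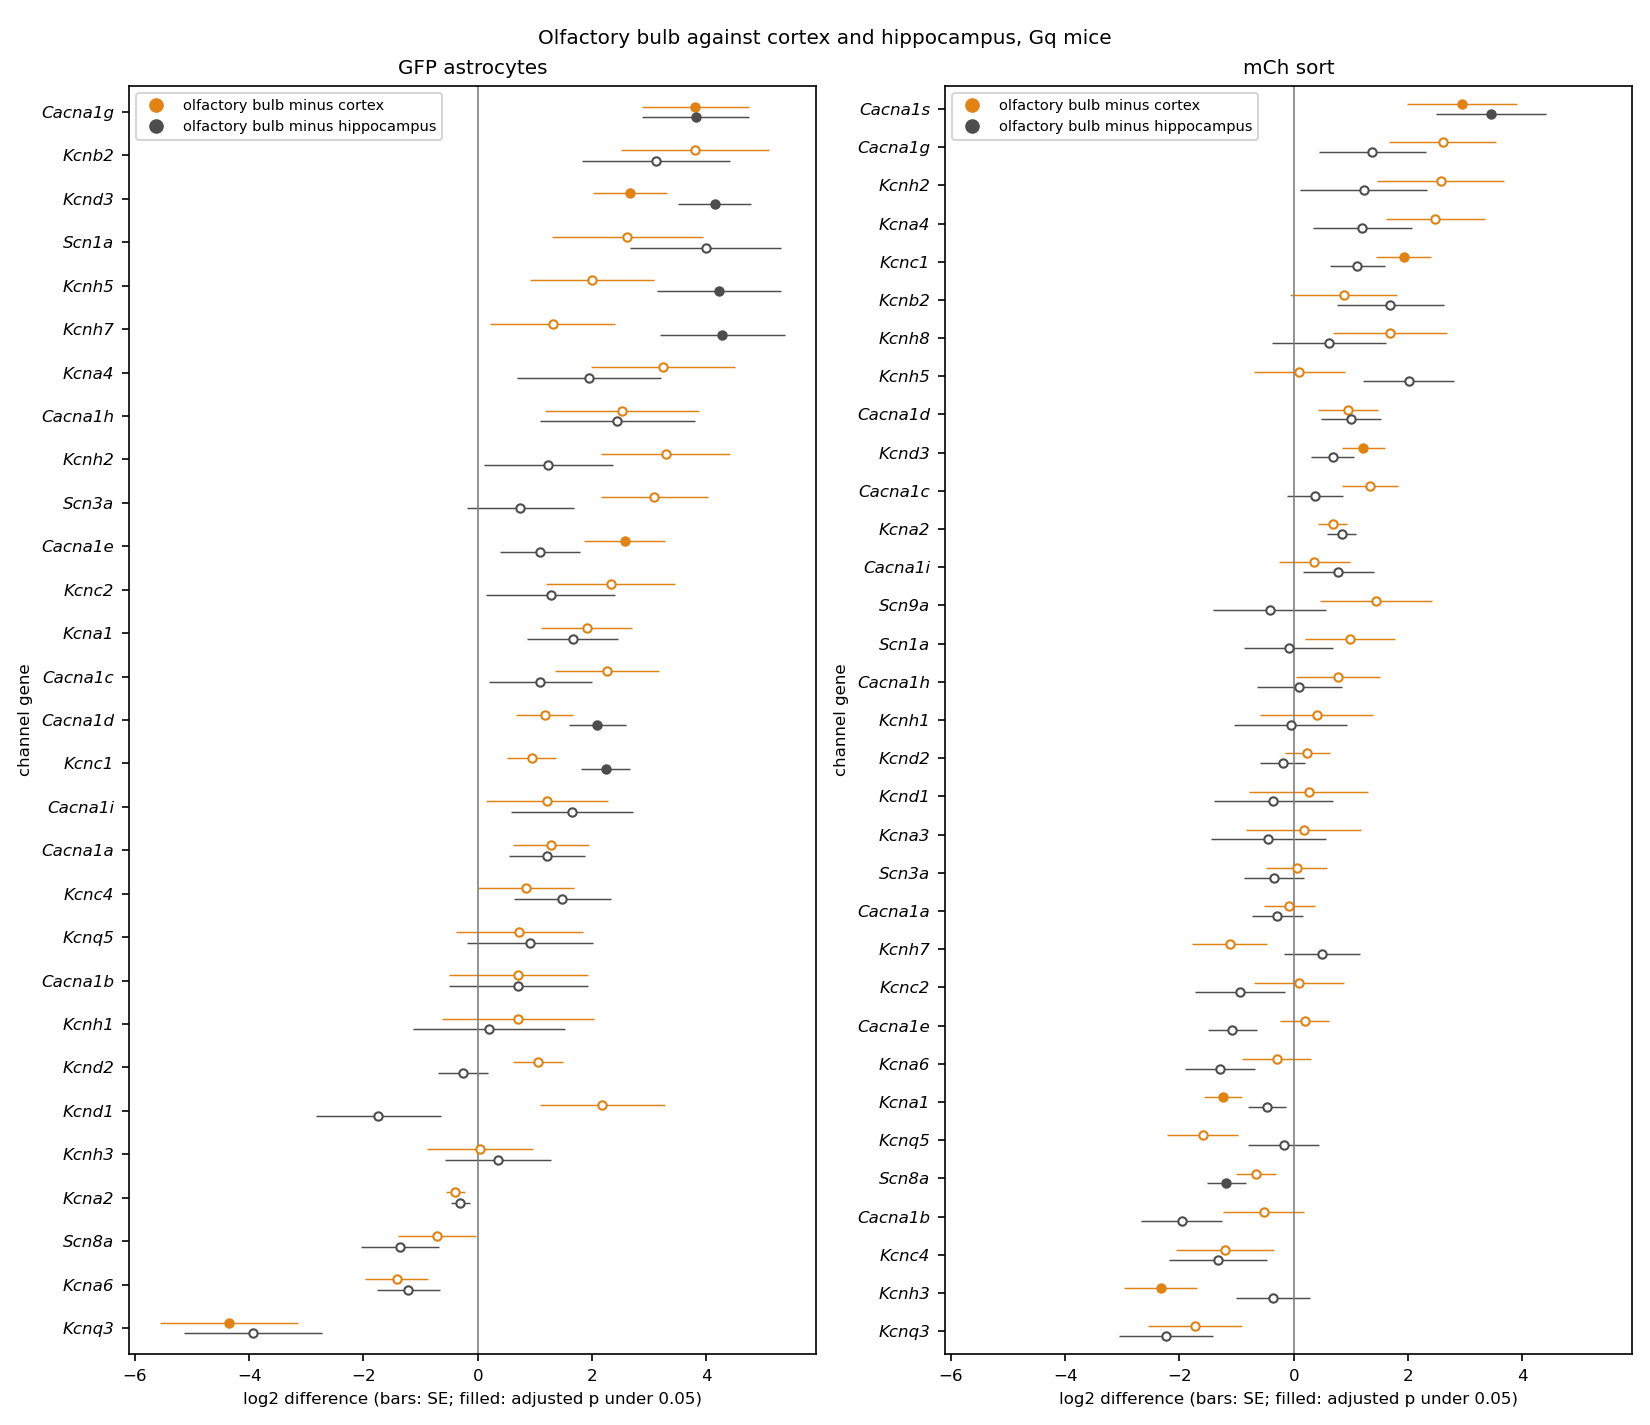
Log2 difference of tested channel genes, olfactory bulb minus cortex and olfactory bulb minus hippocampus, in the GFP sort (left) and the mCh sort (right) of Gq mice, with bars for 1 SE and filled points for a limma adjusted p under 0.05. In the GFP sort Kcnd3 lies at 2.67 and 4.14 and most genes are right of 0, while in the mCh sort Kcnh3 lies at -2.33 against cortex.

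CNO was also given without the Gq label. By limma 2 of 26 channel genes were called higher than in untreated libraries, beside 5.29% of all genes. Olfactory bulb GFP astrocytes of CNO control mice had Kcna1 at 97.1, 126 and 131 RPM, against 32.9, 44.6 and 28.0 RPM in untreated mice. Scn8a was at 44.9, 69.4 and 75.0 RPM in CNO control libraries, against 10.5, 11.6 and 29.0 RPM in untreated libraries. Neither gene overlapped between the groups, where 32.9% of all genes tested did not. The log2 difference was 1.49 (SE 0.25, limma adjusted p = 0.00263) for Kcna1 and 1.74 (SE 0.40, limma adjusted p = 0.0155) for Scn8a. They were 2 of 26 channel genes tested, a count near what the share of all genes called higher, 5.29%, gives. Without CNO control replicate 2 or 3, Scn8a lost its call (highest limma adjusted p = 0.0881) and 1 gene was left. Kcna2 had 838, 780 and 762 RPM in CNO control libraries, against 546, 615 and 677 RPM in untreated ones, and although the RPM values did not overlap, the log2 difference of normalised values was 0.12 (SE 0.13) and was not called. The median log2 difference was 0.24 over the channel genes and 0.11 over all genes. The 12 neuron markers summed to 1319 to 1374 RPM in CNO control and 809 to 1097 RPM in untreated libraries, and the 12 microglia markers to 109 to 188 RPM in CNO control and 599.5 to 756 RPM in untreated libraries. Summed oligodendrocyte markers were 1972 to 2776 RPM in CNO control and 1061 to 1476 RPM in untreated libraries, and the ribosomal RNA gene Rn45s took 8.90% to 11.5% of reads in CNO control and 15.7% to 23.0% in untreated libraries. Their part in the rise of Kcna1 and Scn8a was not tested.

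In the floxed mice the targeted gene, Slc22a3, had 0, 0 and 12 reads in the 3 libraries labelled Slc22a3-cKO and 0 reads in each of the 3 control libraries. With 3 reads as the limit that a count of 0 allows, the libraries with no read could hold up to 0.224 to 0.354 RPM. The 12 reads of replicate 3 of the libraries labelled Slc22a3-cKO came to 1.60 RPM, above the limit of at most 0.337 RPM in controls. With so few reads, the gene checks none of the labels. In the libraries labelled Slc22a3-cKO, 3 of 37 channel genes tested were called lower than in controls, among them Scn8a and Scn1a (1.17% of all genes were called lower). Scn8a had 32.2, 17.3 and 33.8 RPM in the libraries labelled Slc22a3-cKO, against 204, 108 and 88.9 RPM in controls, a log2 difference of -2.04 (SE 0.41, limma adjusted p = 0.0288). Scn1a had 18.2, 14.8 and 31.1 RPM in the libraries labelled Slc22a3-cKO, against 114, 86.8 and 61.9 RPM in controls, a log2 difference of -1.87 (SE 0.41, limma adjusted p = 0.0397). Neither gene overlapped between the groups of floxed mice, where 22.7% of all genes tested did not.

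Of the 37 channel genes, 33 had a negative difference, with a median of -2.14 beside -0.10 over all genes. Groups did not overlap for 14 of the 37. Kcna2 had 159, 148 and 399.5 RPM in the libraries labelled Slc22a3-cKO, against 731, 538 and 312 RPM in controls. Replicate 3 of the libraries labelled Slc22a3-cKO stood above control replicate 3, and the difference of -1.04 (SE 0.40) was not called (limma adjusted p = 0.187). The L-type gene Cacna1d, with 130, 116 and 150.3 RPM in the libraries labelled Slc22a3-cKO, against 124, 130 and 166 RPM in controls, overlapped between the groups. The 12 neuron markers, all with reads in each of the 6 libraries, summed to 397 to 1179 RPM in the libraries labelled Slc22a3-cKO and 1519 to 4249 RPM in controls. The 16 astrocyte markers summed to 2134 to 6660 RPM in the libraries labelled Slc22a3-cKO and 7274 to 14709 RPM in controls, and the microglia markers to 6381 to 14069 RPM and 4882 to 11224 RPM in the same order. Summed glutamate neuron markers were at 35.3 to 55.6 RPM in the libraries labelled Slc22a3-cKO and 145 to 302 RPM in controls, and oligodendrocyte precursor markers at 27.2 to 97.8 RPM and 121 to 295.5 RPM in the same order. Their part in the lower channel genes was not tested. The calls depended on single libraries: limma called none without control replicate 1 or 2, or without replicate 1 or 2 of the libraries labelled Slc22a3-cKO, and 13 without replicate 3 of those libraries. Scn1a also lost its call without control replicate 3 (limma adjusted p = 0.059). By edgeR 4 were called and by DESeq2 10, and 22 had an unadjusted limma p under 0.05, beside 2482 of all 13465 genes tested.

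**Figure D5:**
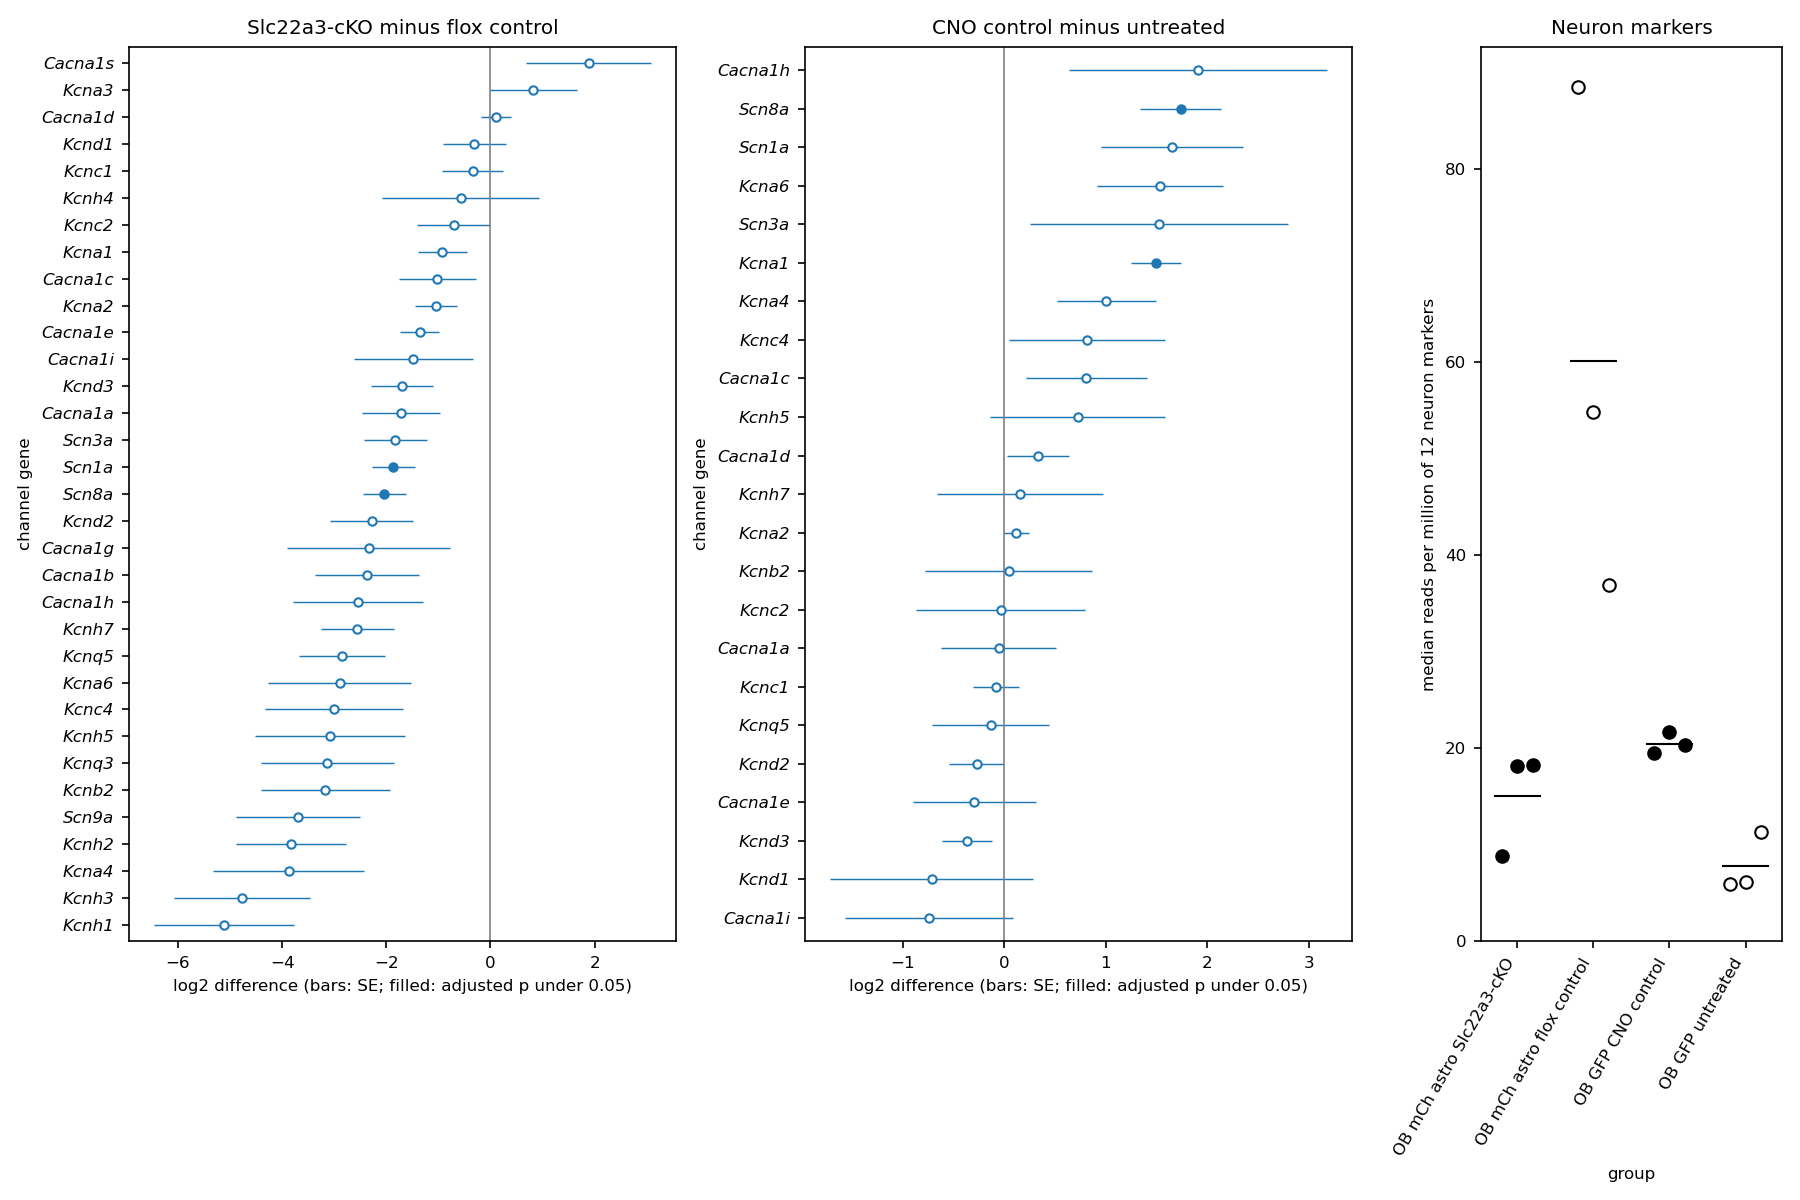
Log2 difference of tested channel genes in the libraries labelled Slc22a3-cKO minus controls and in CNO control minus untreated, with bars for 1 SE and filled points for a limma adjusted p under 0.05, and the median RPM of 12 neuron markers in each library of the 4 groups. Neuron markers are at 8.80 to 18.2 RPM in the libraries labelled Slc22a3-cKO against 36.9 to 88.5 RPM in controls, and at 19.5 to 21.6 RPM in CNO control against 5.90 to 11.3 RPM in untreated libraries.

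Between Gq-CNO and Gq-Saline libraries no channel gene was called in any region or sort by limma, edgeR or DESeq2. In the GFP astrocytes limma tested 32 channel genes in olfactory bulb (0.00847% of all genes were called), 21 in cortex (0% of all genes) and 27 in hippocampus (0% of all genes). Of them 2, 1 and 0 had an unadjusted p under 0.05, beside 564 of 11810, 142 of 9978 and 234 of 11519 of all genes tested. In the mCh sort it tested 32 in olfactory bulb, 30 in cortex and 30 in hippocampus (0% of all genes were called in each). Of them 4, 1 and 3 had an unadjusted p under 0.05, beside 556 of 10492, 428 of 9392 and 445 of 9808 of all genes tested. Groups did not overlap for 4, 3 and 3 channel genes in the GFP sort and 5, 2 and 4 in the mCh sort of the 3 regions in that order. Over all genes tested, 8.85% to 10.6% did not overlap in these comparisons.

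The smallest p-values among the channel genes did not hold once adjusted over all genes. In olfactory bulb astrocytes Cacna1e (1.27) and Kcnh5 (1.67) had the smallest p-values among genes higher with Gq-CNO, and Kcna1 (-0.88) was among the 2 with the smallest p-values of those lower with it (limma adjusted p = 0.996). Cacna1e had 23.7, 20.8 and 70.6 RPM in Gq-CNO and 17.8, 21.7 and 6.48 RPM in Gq-Saline olfactory bulb astrocytes. Of these, 1 Gq-CNO library was high and 1 Gq-Saline library low, and the groups overlap. The difference fell to as low as 0.73 with 1 library left out. In cortical astrocytes these genes were Kcnh3 (4.03), Kcnq3 (2.60), Kcnd3 (-1.70) and the T-type gene Cacna1i (-1.91), and in hippocampal astrocytes Kcnq5 (3.30), Kcnc4 (-1.87) and Cacna1c (-1.68).

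In the mCh sort of olfactory bulb, 9 channel genes were higher with Gq-CNO and 23 lower. The smallest p-values within each direction were those of Kcnd3 (0.44) and Kcna6 (0.66), higher, and Cacna1e (-0.97) and Kcnq5 (-1.84), lower. With 1 library left out, the difference of Kcnd3 fell to as low as 0.033 and that of Kcna6 to -0.059. Cacna1e had 63.0, 41.2 and 37.8 RPM in Gq-CNO and 110, 103 and 63.1 RPM in Gq-Saline libraries there. These values nearly touch, at 63.0 and 63.1 RPM. In cortex the smallest p-values within each direction were those of Kcnq3 (2.41), Kcnb2 (2.69), Kcnd3 (-1.41) and the T-type gene Cacna1h (-2.56). Hippocampus had Kcnq5 (2.05), Kcnd1 (2.56), Kcna6 (-1.53) and Cacna1a (-1.34), the P/Q-type gene of presynaptic terminals. Cacna1a had 15.99, 56.7 and 29.0 RPM in Gq-CNO and 95.0, 79.5 and 53.4 RPM in Gq-Saline hippocampal mCh libraries. The RPM of Gq-CNO replicate 2 lay above that of Gq-Saline replicate 3, though the normalised values did not overlap.

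Kcna2 moved little with Gq-CNO in any region or sort. Its log2 difference was 0.05 in olfactory bulb, 0.08 in cortical and 0.15 in hippocampal GFP astrocytes, and -0.10, -0.33 and 0.34 in the mCh sort of the same regions, none of them called. The Gq-CNO effect itself was compared between pairs of regions within each sort, and no channel gene was called by limma, edgeR or DESeq2 in any of these 6 tests (limma called 0% of all genes in each). For the effect in olfactory bulb against that in cortex, 2 of 36 channel genes of the mCh sort and 3 of 33 of the GFP sort had an unadjusted p under 0.05. The counts were 4 and 0 for olfactory bulb against hippocampus, and 2 and 1 for cortex against hippocampus, again with the mCh sort first. Over all genes of the mCh sort, 633, 329 and 744 of 12358 had such a p in these pairs, in that order. In the GFP sort 326, 187 and 715 of 12921 did.

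Channel pores work with auxiliary subunits and scaffolds, which were taken from 6 lists: sodium channel beta subunits and fibroblast growth factor homologues, potassium channel beta and interacting proteins, calcium channel alpha2delta and beta subunits, silent potassium channel subunits, initial segment and node proteins, and other potassium, cation and leak channels. In cortex, GFP minus mCh sort, where 15.204% of all genes were called higher and 16.8% lower, 6 of 8 sodium auxiliaries tested were lower and none higher, with a list median of -2.70 (0.05 over all genes). Scn3b, a beta subunit, differed by -4.11. Potassium auxiliaries split, with 4 of 15 higher (Amigo1, 5.86) and 5 lower (Dpp6, -4.95), and a median of -0.74. Of 8 calcium auxiliaries 2 were higher and 4 lower (Cacnb4, -3.90, and Cacna2d1, -1.86), with a median of -1.83. Of 8 silent subunits 1 was higher (Kcng4, 5.25) and 2 lower (Kcnv1, -4.25), with a median of -0.87. Of 11 initial segment and node genes 2 were higher and 7 lower (Dlg2, -4.16, and Ank3, the organiser of the axon initial segment, -3.66), with a median of -1.80. Of the 9 other channels 2 were higher (Kcnn3, a calcium-activated potassium channel gene, 3.49) and 3 lower, with a median of -0.34.

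The same numbers of genes were tested in hippocampus, where 11.3% of all genes were called higher and 15.9% lower. There 0 sodium auxiliaries were higher and 4 lower (Fgf13, -2.91, and Scn3b, -3.78), potassium auxiliaries gave 2 and 4 (Kcnab2, -3.91, and Dpp6, -4.61), calcium auxiliaries 1 and 5 (Cacna2d1, -2.71, and Cacna2d3, -4.01), silent subunits 1 and 2 (Kcng4, 4.64, and Kcng3, -3.15), initial segment genes 2 and 6 (Nfasc, -3.65, and Ank3, -3.86) and other channels 2 and 4 (Kcnn3, 3.67, and Nalcn, -4.15). In olfactory bulb, with the same numbers tested and 5.30% of all genes called higher and 9.85% lower, the counts higher and lower were 0 and 2 for sodium (Scn2b, -3.54, among them), 2 and 2 for potassium (Kcnab2, -3.55, and Kcnip3, 1.09), 0 and 2 for calcium (Cacna2d1, -1.86, and Cacnb4, -2.70), 0 and 0 for silent subunits, 1 and 5 for initial segment genes (Nfasc, -3.71, and Ank3, -3.96) and 1 and 1 for other channels (Kcnn3, 1.30, and Hcn3, -2.58). Kcnn3 was thus called higher in the GFP sort in each region.

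Between regions of the GFP sort, olfactory bulb minus cortex, 6 of 53 auxiliaries were called higher and 2 lower, beside 3.22% and 1.80% of all genes. They were Scn3b (5.93), Kcnip1 (4.56), Kcnip3 (0.89), Cacnb2 (3.76), Kcnf1 (4.50) and Cntnap2 (2.22), higher, and Lgi1 (-2.15) and Kcnn2 (-1.82), lower. Kcnip3 and Kcnip1 bind channels of the Kcnd family, whose member Kcnd3 was also higher. Against hippocampus, of 53 tested, Kcnip3 (0.80), Kcne1l and Kcnf1 (3.64) were higher, and Kcne2 (-5.10), Lgi1 (-2.87) and Kcnn2 (-2.08) lower. There 2.24% of all genes were called higher and 1.42% lower. In the mCh sort, olfactory bulb minus cortex, 7 of 51 were called higher and 5 lower, beside 5.58% and 2.99% of all genes. Fgf13 (-3.41), Scn4b (-3.62), Dlg2 (-2.34) and Dlg4 (-1.67) were among the lower, and Amigo1 (4.80), Amigo2, Kcne1l (3.59), Kcng4 (3.85), Ank2, Ank3 and Kcnn3 (1.79) higher. Against hippocampus 5 of 51 were called in each direction, beside 2.29% of all genes called higher and 1.62% lower. Fgf13 (-3.10), Kcnab1, Kcnab2, Dlg2 (-1.04) and Lgi1 (-2.28) were lower, and Fgf12 (1.52), Dpp10 (1.66), Kcnab3 (3.90), Kcng4 (3.27) and Kcnn3 (2.40) higher. Dlg2 (1.30) was the 1 auxiliary called between cortex and hippocampus of the mCh sort, and none was called in the GFP sort.

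Of 41 auxiliaries tested, CNO control astrocytes had higher Kcnip4 (2.71), Dpp10, Cacnb4 (1.23), Lgi1 (2.33) and Kcnn2 (1.04) and lower Kcne1l (-1.92) than untreated ones. Over all genes, 5.29% were called higher and 6.88% lower in that comparison. Of 50 tested, the libraries labelled Slc22a3-cKO had lower Kcnip3 (-1.48), Cntnap2 (-2.84) and Nfasc (-3.84) than controls (1.17% of all genes were called lower). The list medians ran from -1.14 for sodium auxiliaries to -3.40 for silent subunits, beside -0.10 over all genes. None of the auxiliaries was called between Gq-CNO and Gq-Saline in any region or sort.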

How the data were processed

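RNA-seq was done on sorted mouse brain cells. Per the labels' protocols, RNA was extracted with the RNeasy Micro kit and libraries were made from 10 ng of total RNA with the Trio RNA-Seq kit and sequenced paired-end. Per the submitters' processing notes, the tools were STAR 2.5.0a on mm10 for alignment, FastQC 0.11.7 with MultiQC 1.11 for quality and DESeq2 1.30.1 for normalisation. The 6 deposited tables hold normalised signal values, that is, gene read counts that the authors scaled by 1 size factor per library. The tables were normalised separately, except that the 18 mCh libraries of Gq mice share 1. Reads were recovered by dividing each column by its smallest step (100% of values lay within 0.05 of a whole number), and levels are recovered reads per 1000000 of a library.

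Tests on log2(value + 1) used limma 3.58.1 (R 4.3.3), trended by mean. This pseudocount understates changes of low genes. A gene needed 3 libraries of a fit at a value of 10 or more to be tested. Calls rest on Benjamini-Hochberg adjustment over all tested genes, with a threshold of 0.05. For comparisons across tables, recovered reads were normalised anew by median-of-ratios size factors over all libraries of the fit. As alternatives, recovered reads were tested with edgeR 4.0.16 by quasi-likelihood, and with DESeq2 1.42.0. The scripts were tested on simulated data. Genes were named by a rule: up to 4 higher and 4 lower channel genes with the largest difference among those called, up to 2 each with the smallest p where none was called, the 5 with the highest level in each sort, up to 2 called genes of each auxiliary list, and 12 channel genes that may always be named. Some genes that the rule names are not reported here, in the text or the figures, although they count in the totals. Further called genes of the lists were picked with their values known. The members and lists were chosen with earlier results of these data known. Replicate numbers were not used as a block, since in no comparison did the deviations of every same-numbered pair correlate above 0.1 (the correlations are given with the alternatives). Limits for a count of 0 cover counting error alone, as reads without molecular identifiers are not separate molecules.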

Additional observations from a re-analysis of the deposited data

How the results depend on the processing

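Of 36 called differences of channel genes chosen by the naming rule, 14 kept the call under every alternative, 22 lost it in some and none reversed. Of 312 counts and levels under alternatives, 266 moved by less than 1.5 times (or 1 SD). The 266 include counts of 0 that stayed at 0, as in every Gq-CNO against Gq-Saline comparison, so they say little about comparisons with calls. Leaving out 1 library at a time gave 1 to 2 calls for CNO control, 0 to 13 for the libraries labelled Slc22a3-cKO, 3 to 7 and 1 to 3 for the mCh sort, olfactory bulb minus cortex and minus hippocampus, 1 to 7 and 2 to 6 for the same contrasts in the GFP sort, and 3 to 6, 17 to 21 and 20 to 23 for GFP minus mCh in olfactory bulb, cortex and hippocampus. With Gq-Saline libraries only, the mCh sort had 0 calls against cortex and 0 against hippocampus, the GFP sort 0 and 1, and GFP minus mCh 1, 9 and 10 in olfactory bulb, cortex and hippocampus; these fits use fewer libraries. With DESeq2 the counts were 10 for the libraries labelled Slc22a3-cKO, 5 for the mCh sort, olfactory bulb minus hippocampus, 3 for the GFP sort, cortex minus hippocampus, and 11 for GFP minus mCh in olfactory bulb, where edgeR gave 8, a pseudocount of 5 gave 9 and quantile normalisation 9. Quantile normalisation gave 5 for the mCh sort, olfactory bulb minus hippocampus. Chosen after seeing the data, leaving out libraries under 1000000 reads gave 2 for the GFP sort, olfactory bulb minus cortex, and leaving out those numbered 4 gave 13, 10 and 3 for its 3 region contrasts. The median Kcna2 level in GFP astrocytes was 545 RPM when Rn45s and mitochondrial genes were left out of the total, beside 469 RPM. Kcna6 in the olfactory bulb mCh sort, which was not called, was 0.66, turned to -0.059 without Gq-Saline replicate 3, and ran from -0.059 to 1.26 with 1 library left out. The cause of these changes was not tested. Same-numbered libraries deviated with correlations of -0.09 to 0.13 within comparisons, and in the hippocampal comparisons every library correlated best with its own number, a hint from the data only. With the replicate block, 0 channel genes were called in the libraries labelled Slc22a3-cKO, and 1 and 3 in the GFP sort, olfactory bulb minus cortex and minus hippocampus, where the adjusted p of Kcnd3 against cortex was 0.159. Between Gq-CNO and Gq-Saline in cortex, 0 channel genes were called with or without the 3 libraries of 228048 to 695264 reads.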
